A study of Mus musculus with 4 samples.

Results

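The 9 genes Vcam1, Mrc1, Igf1, Spic, Cd163, Timd4, Axl, Mertk and Adgre1, which mark the resident macrophages of the bone marrow, were followed among the 31053 genes of 4 single-cell libraries. The list was chosen by gene name with earlier readings of the genes' levels and shares of positive cells in these same libraries known, so those levels are given as a description. Each gene was measured over all cells with at most 15% mitochondrial UMIs, and again in the C1q cells, which are the cells with 5 or more UMIs (unique molecular identifiers, each marking 1 captured mRNA molecule) of C1qa, C1qb and C1qc together. The marrow came from femur and tibia of C57/B6 mice aged 12 months, depleted of red blood cells, and 1 library was made for each of 4 genotypes. TWT mice were IL6+/+, mDia1+/+ and miR146a+/+. IL-6 KO mice were IL6-/-. DKO mice were mDia1-/- and miR146a-/-, a model of myelodysplastic syndrome that progresses to leukemia, and TKO mice were IL6-/-, mDia1-/- and miR146a-/-. The mDia1 and miR146a knockouts were constitutive and so not restricted to the marrow, and the sources used here do not state the number of mice behind each library. Genotypes rest on a single library each, so none could be tested against another, and the 95% intervals below are exact ones for counting error alone.

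Resident marrow macrophages are long-lived cells that sit among developing blood cells. Some form the centre of erythroblastic islands, where they hold red cell precursors through VCAM1, engulf the nuclei these expel and recycle iron from heme. Others take up aged neutrophils and apoptotic cells. The complement gene C1q is made by tissue macrophages and little by circulating monocytes, which can themselves become macrophages when they leave the blood.

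There were 53 C1q cells among 8208 cells in TWT (0.646%, 0.484 to 0.844%), 34 of 8444 in IL-6 KO (0.403%, 0.279 to 0.562%), 624 of 10190 in DKO (6.12%, 5.67 to 6.61%) and 43 of 8798 in TKO (0.489%, 0.354 to 0.658%). The DKO share stood apart from the other 3, whose intervals overlapped. The C1q cells also differed in depth: in TWT, IL-6 KO, DKO and TKO their median was 1190, 1094.5, 6869.5 and 1363 UMIs, against 4505.5 to 7046 over all cells of a library. The 5 macrophage markers that the gate did not use, among them Cd68 and the lysosomal proteases Ctsb and Ctsd, all had UMIs in the C1q cells of every library. They summed there to 5081, 4657, 3743 and 4559 CPM (counts scaled to 1000000 UMIs of the same cells) in TWT, IL-6 KO, DKO and TKO, against 506, 536, 1155 and 548 CPM over all cells. Of the library checks, Diaph1, the gene of mDia1, had 163 and 178 CPM in TWT and IL-6 KO and 11.4 and 12.4 CPM in DKO and TKO. Il6 went against its labels, with 606 and 587 UMIs in the libraries labelled IL-6 KO and TKO and 52 and 20 in TWT and DKO. Which part of Il6 was deleted is not stated in the sources used here, and 3′ UMIs from outside it would check nothing. IL-6 KO and TKO therefore mean the libraries so labelled throughout. Libraries shared 19 to 36 cell barcodes in each pair, and 1 barcode was a C1q cell in both of its libraries, TWT and DKO.

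The gate on C1q cut through a range of cells. With exactly 5 C1q UMIs, just inside it, lay 8, 4, 25 and 3 cells of TWT, IL-6 KO, DKO and TKO, and of these 8, 4, 15 and 3 had a UMI of at least 1 of the 9 genes. With 4 C1q UMIs, just outside it, lay 11, 10, 39 and 3 cells, of which 8, 7, 30 and 2 had such a UMI. Vcam1 was found in 5 of the 8 TWT cells just inside and in 7 of the 11 just outside, and in none of the 25 and 39 DKO cells.

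Promoter sequence is shown for Mrc1 and Spic because Spic encodes an ETS-family transcription factor related to PU.1 (gene Spi1), and because these were the 2 of the 7 genes with an entry whose upstream window holds AGGAAGT, the core letters of a PU.1-type ETS site. Each run is the 250 bases before RefSeq's transcription start in GRCm38.p6, which is not the start of the gene model given with each gene further on, read 5′ to 3′ on the gene's strand. The capitals mark AGGAAGT, which lies on the opposite strand in both and so reads as its reverse complement. In Mrc1 (chr2:14229164-14229413, plus strand) the letters lie 211 to 205 bases before the start, and in Spic (chr10:88683024-88683273, minus strand) 48 to 42 bases before it.
Mrc1: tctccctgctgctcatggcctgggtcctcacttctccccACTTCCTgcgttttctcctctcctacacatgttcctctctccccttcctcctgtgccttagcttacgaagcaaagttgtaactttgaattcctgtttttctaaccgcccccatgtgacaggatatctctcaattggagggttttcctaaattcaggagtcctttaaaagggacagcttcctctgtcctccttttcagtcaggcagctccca
Spic: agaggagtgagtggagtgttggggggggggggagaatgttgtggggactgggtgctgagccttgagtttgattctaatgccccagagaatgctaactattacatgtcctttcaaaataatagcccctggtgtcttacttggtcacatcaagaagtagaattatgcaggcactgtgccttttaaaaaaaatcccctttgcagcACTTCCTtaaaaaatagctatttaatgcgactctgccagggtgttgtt
The same letters, on either strand, were in 2525 of 32851 promoter windows of this length (7.69%). A match is a description of the letters and no measure of binding. The windows of Mertk, Cd163, Axl, Igf1 and Timd4 had no match.

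Spic, Axl and Mertk were higher in the DKO than in the TWT library over all cells and lower within the C1q cells, while Mrc1 was lower in both views. Over all cells, 5 of the 9 (Spic, Timd4, Axl, Mertk and Adgre1) exceeded their TWT level in DKO by 2-fold or more, where 7.23% of all measured genes did, and 2 were at least 2-fold lower (Mrc1 and Cd163), where 20.0% were. A gene was measured in a comparison when it had at least 30 UMIs in both libraries together, and a gene at 0 in 1 of them was set there at 3 UMIs. Timd4 reached that number through its 25 UMIs in DKO, and with 7 in TWT it could be counted only as higher. With the study's cell filter 4 of the 9 were higher, and Timd4 was not among them. Within the C1q cells none was 2-fold higher, where 17.0% of measured genes were, and 6 of the 7 measured were 2-fold lower (Vcam1, Mrc1, Igf1, Spic, Axl and Mertk), where 9.98% were. Adgre1 lay within 2-fold, and Cd163 and Timd4 had too few UMIs for the rule and were lower in value. Over all cells the median log2 ratio of the measured genes among the 9 was 1.44, the value of Timd4. Over all measured genes of the libraries it was -0.28. In the C1q cells these medians were -2.21 and 0.11, in that order.

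**Figure D1:**
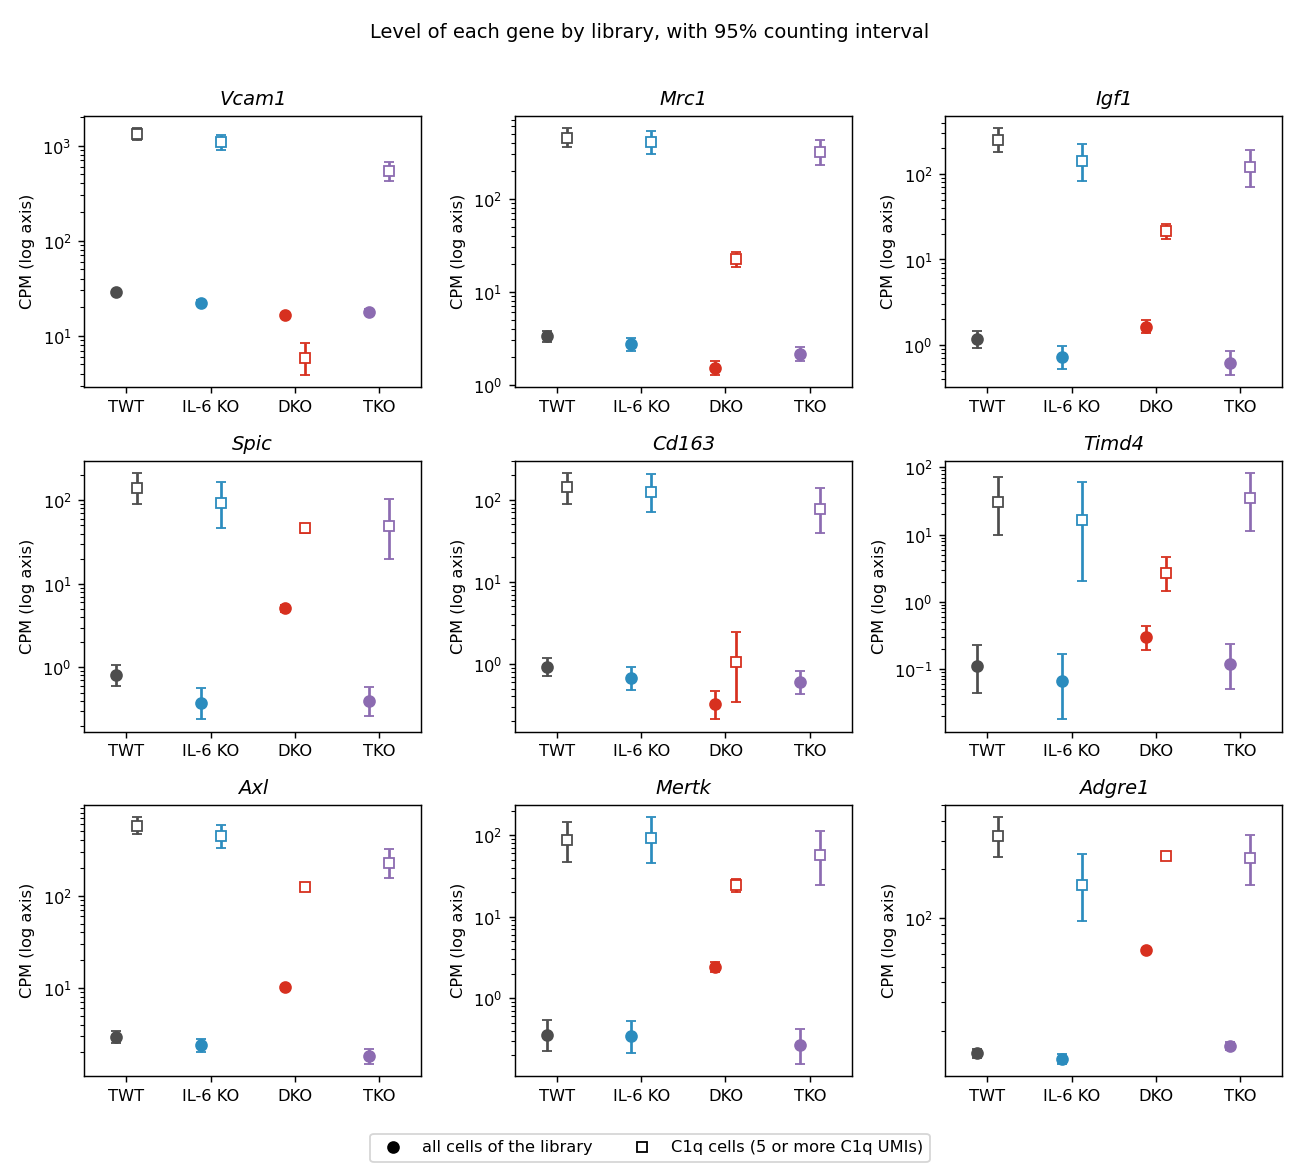
CPM of the 9 genes on log axes in the 4 libraries, over all cells (filled circles) and in C1q cells (open squares), with 95% counting intervals. In DKO the open squares of Vcam1, Mrc1, Igf1 and Cd163 drop far below those of the other 3 libraries, while the filled circles of Spic, Axl, Mertk and Adgre1 rise above theirs.

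The all-cell result rested on how cells were weighted. When each cell's own CPM was averaged, so that shallow cells counted as much as deep ones, 1 of the 9 genes stayed 2-fold higher in DKO than in TWT (Adgre1) and 4 were lower (Vcam1, Mrc1, Igf1 and Cd163). Against TKO the same averaging left 3 higher (Spic, Axl and Adgre1) and 3 lower (Vcam1, Mrc1 and Cd163). The C1q-cell result held in that setting, with 7 genes lower and none higher. It also held in the C1q cells of at least 2000 UMIs, 20 in TWT and 602 in DKO, with 5 lower and none higher. Markers of some other cell types moved with it. In C1q cells the 8 neutrophil markers summed to 28428, 19892, 9720.1 and 31904 CPM in TWT, IL-6 KO, DKO and TKO. The 8 erythroid markers summed to 19661, 2521, 251 and 1850.4 CPM, and the 8 conventional dendritic cell markers to 12617, 5310.1, 3224 and 8649 CPM. All 8 neutrophil markers had UMIs in the C1q cells of each library, Klf1 was at 0 in all 4 for the erythroid list and Xcr1 in all 4 for the dendritic list. Leaving out C1q cells with 5% or more of their UMIs from S100a8 and S100a9, neutrophil genes, kept the same 6 genes lower. Other marker sums were higher in DKO than in TWT C1q cells. Non-classical monocyte markers had 1609 against 474 CPM, classical monocyte markers 5399 against 4657, and granulocyte-monocyte progenitor markers 816 against 517. Plasma cell markers had 220 against 172 CPM and T cell markers 58.1 against 30.8. B cell, NK cell, plasmacytoid dendritic cell, megakaryocyte and stromal markers were lower in DKO. The part of the other markers in the result was not tested.

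**Figure D2:**
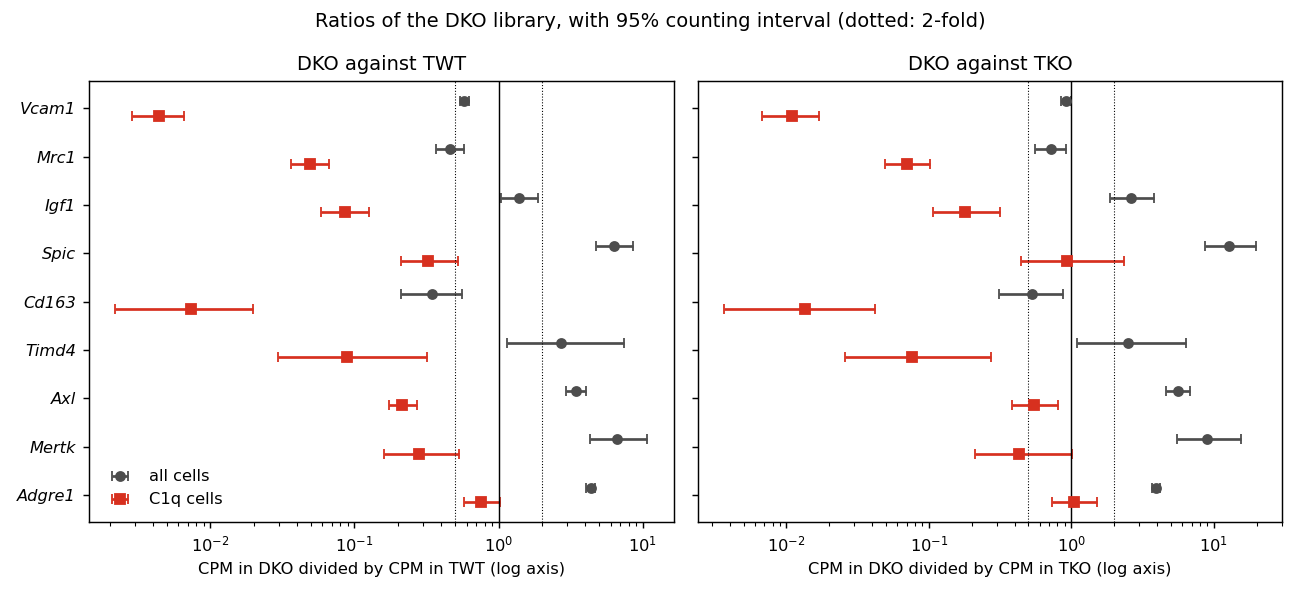
CPM ratio of DKO to TWT (left) and to TKO (right) on log axes, for all cells (circles) and C1q cells (squares), with 95% counting intervals and dotted lines at 2-fold. The squares lie left of the circles for every gene in both panels, and the widest gap against TWT is that of Vcam1, from 0.577 over all cells to 0.00442 in C1q cells.

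Vcam1 (ENSMUSG00000027962, GRCm38 chromosome 3, 116109949 to 116129688, minus strand) encodes the adhesion molecule that binds the integrin VLA-4 on erythroblasts and progenitors. In C1q cells it stood at 1323 CPM (1152 to 1512) for TWT, 1080.45 (902 to 1284) for IL-6 KO, 5.85 (3.89 to 8.46) for DKO and 539 (425 to 674) for TKO. The DKO value was 226-fold below TWT (152 to 348) and 92.1-fold below TKO (59.0 to 148), and the other 3 libraries lay within 2.45-fold of each other. It was detected in 37 of 53, 29 of 34, 18 of 624 and 26 of 43 C1q cells. The DKO thus had 18 cells with both C1q and Vcam1 although it had the most C1q cells.

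This was not so in the cells that held most of the Vcam1 RNA. Cells outside the C1q gate were sorted into classes by 8 markers each, and granulocyte-monocyte progenitor-like cells (high in Mpo, Elane and Prtn3) held 66.8, 70.0, 77.5 and 75.1% of all Vcam1 UMIs in TWT, IL-6 KO, DKO and TKO. In them Vcam1 had 90.8, 85.6, 95.4 and 57.8 CPM, and the DKO to TWT ratio was 1.05 (0.968 to 1.14), while the ratio in C1q cells was 0.00442 (0.00287 to 0.00658). The intervals of the ratios do not overlap. The macrophage-like cells outside the gate followed the C1q cells, with 213, 340.1, 0.994 and 306 CPM. In TWT the 37 C1q cells with Vcam1 had a median of 855 UMIs and the 16 without it 6570.5, so that Vcam1 was found in the shallower C1q cells. The medians were 980 and 6041 UMIs in IL-6 KO and 1269.5 and 1857 in TKO, while in DKO the 18 cells with Vcam1 were the deeper ones, at 11441 against 6820.

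**Figure D3:**
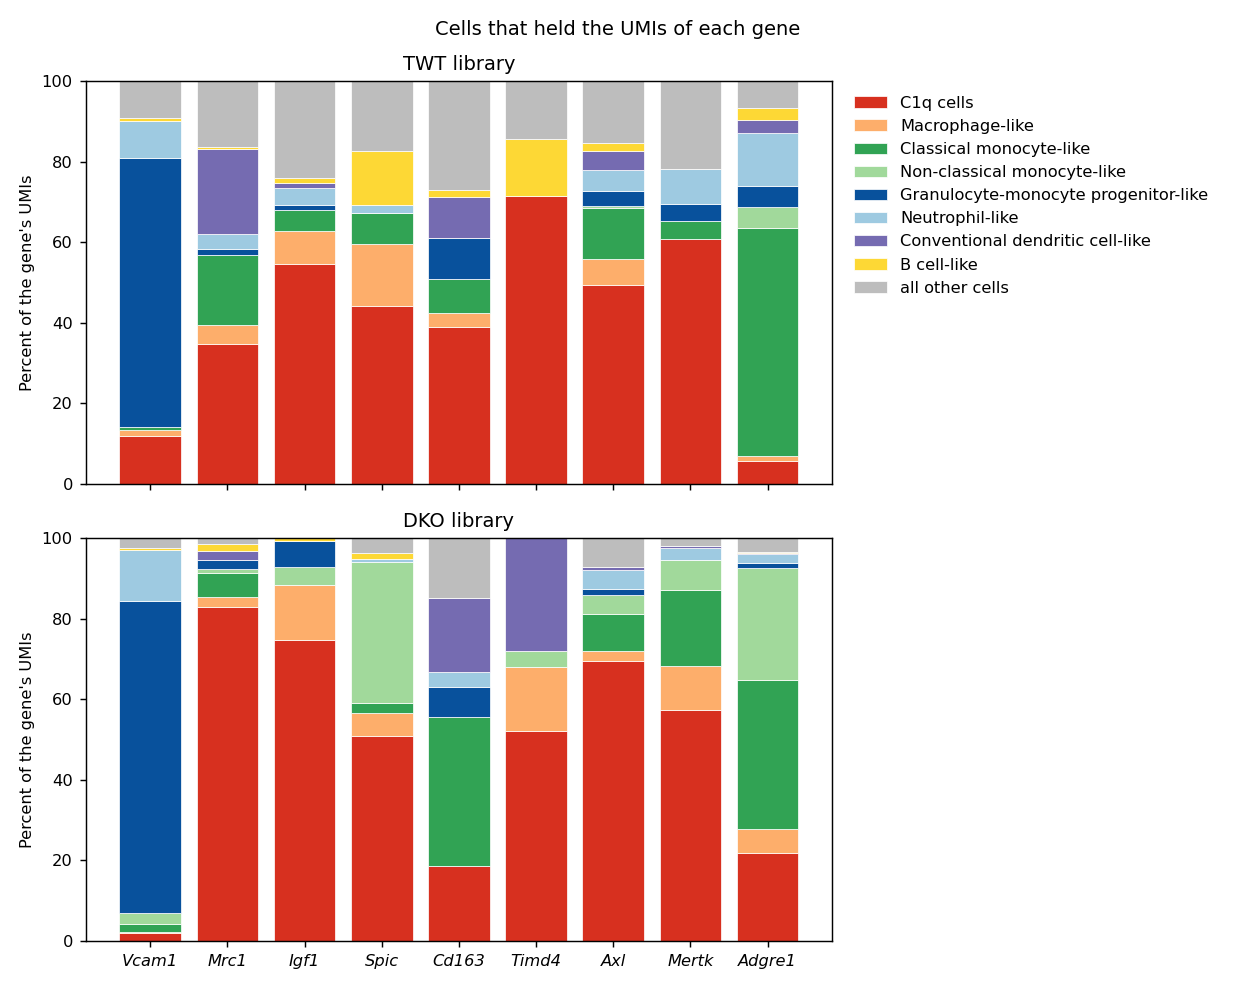
Percent of each gene's UMIs, from 0 to 100, held by C1q cells and by marker-defined cell classes in the TWT and DKO libraries. Vcam1 was held mostly by granulocyte-monocyte progenitor-like cells in both, and Spic shows a block of non-classical monocyte-like cells (34.9%) in DKO that TWT lacks.

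Mrc1 and Cd163, which encode the mannose receptor CD206 and the receptor for hemoglobin-haptoglobin complexes, were the scavenger receptors of the group. Mrc1 (ENSMUSG00000026712, GRCm38 chromosome 2, 14229392 to 14332057, plus strand) had 455, 410, 22.4 and 319 CPM in C1q cells of TWT, IL-6 KO, DKO and TKO. DKO was 20.4-fold below TWT (14.9 to 27.6) and 14.3-fold below TKO (9.84 to 20.4). Over all cells it had 3.33, 2.72, 1.53 and 2.14 CPM, which is 2.18-fold lower in DKO than in TWT (1.74 to 2.73).

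Mrc1 was also lower in DKO in other cells that express it. In conventional dendritic cell-like cells, which number 72 in TWT and 57 in DKO, it had 65.5, 75.3, 5.16 and 62.9 CPM. The DKO value there rests on 3 UMIs and gave a ratio to TWT of 0.0788 (0.0157 to 0.245). In classical monocyte-like cells it had 5.79, 5.29, 0.41 and 5.67 CPM and a ratio of 0.0708 (0.0285 to 0.155). Of the Mrc1 UMIs of the DKO library 82.9% lay in C1q cells, against 34.7, 29.5 and 31.03% in TWT, IL-6 KO and TKO, and DKO also had the most C1q cells.

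Cd163 (ENSMUSG00000008845, GRCm38 chromosome 6, 124304656 to 124330527, plus strand) was sparse. In C1q cells it had 23, 15, 5 and 11 UMIs, which is 141, 126, 1.05 (0.339 to 2.44) and 78.0 CPM. It was found in 13, 9, 3 and 5 of the C1q cells. The DKO value was below the intervals of the other 3, but TWT and DKO together had 28 UMIs, too few for the rule. Over all cells it was 2.88-fold lower in DKO than in TWT (1.80 to 4.72), at 0.32 against 0.921 CPM.

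Spic (ENSMUSG00000004359, GRCm38 chromosome 10, 88674772 to 88685015, minus strand), the transcription factor that heme induces and that iron-recycling macrophages need, moved in opposite ways in the 2 views. Over all cells it had 0.812, 0.377, 5.13 and 0.398 CPM in the order TWT, IL-6 KO, DKO and TKO, which made DKO 6.32-fold higher than TWT (4.73 to 8.60) and 12.9-fold higher than TKO (8.74 to 19.8). Within C1q cells it had 141, 92.1, 46.0 and 49.6 CPM, so that DKO was 3.08-fold lower than TWT (1.91 to 4.74) and its ratio to TKO, 0.927, had an interval that held 1 (0.442 to 2.33). In C1q cells of at least 2000 UMIs Spic was within 2-fold of TWT. The number of C1q cells with Spic was 16, 8, 100 and 6.

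Many Spic UMIs of the DKO library lay outside the C1q cells. Of its UMIs there 34.9% (151 UMIs) lay in non-classical monocyte-like cells (high in Ace, Treml4 and Cd300e), at 14.3 CPM (12.1 to 16.7). The same class had no Spic UMI in TWT, where it held 40 cells and a count of 0 gives an upper bound of 23.2 CPM, and none in IL-6 KO, with 62 cells and an upper bound of 16.7 CPM. TKO had 2 UMIs there, 4.94 CPM (0.599 to 17.9). Since 40 and 62 cells allow levels above that of DKO, a difference in level within the class was not detectable at this depth. The class itself held 1694 cells in DKO and 40 to 115 in the others.

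The engulfment receptors were Axl, Mertk and Timd4. Axl and Mertk encode receptor tyrosine kinases that bind phosphatidylserine on dying cells through GAS6. The product of Timd4 binds phosphatidylserine itself and marks long-lived resident macrophages. Axl (ENSMUSG00000002602, GRCm38 chromosome 7, 25757273 to 25788705, minus strand) had 2.97, 2.39, 10.2 and 1.81 CPM over all cells of TWT, IL-6 KO, DKO and TKO, 3.43-fold higher in DKO than in TWT (2.93 to 4.03). In C1q cells it had 578, 444, 125 and 227 CPM, 4.64-fold lower in DKO than in TWT (3.69 to 5.78) and 1.82-fold lower than in TKO (1.23 to 2.60). Averaged cell by cell, the all-cell difference from TWT was 0.08 on the log2 scale and no longer passed 2-fold. Axl was nonetheless found in 275 DKO C1q cells, 44.1% of them, against 37 cells (69.8%) in TWT.

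Mertk (ENSMUSG00000014361, GRCm38 chromosome 2, 128698956 to 128802894, plus strand) followed the same course with fewer UMIs. Over all cells it had 0.359, 0.344, 2.39 and 0.265 CPM, 6.66-fold higher in DKO than in TWT (4.32 to 10.8). In C1q cells it had 86.1, 92.1, 24.2 and 56.7 CPM, 3.55-fold lower in DKO than in TWT (1.88 to 6.20). Against TKO it was 2.34-fold lower with an interval that reached 1 (0.987 to 4.76). Classical monocyte-like cells added to the DKO total, with 38 UMIs in 1698 cells against 1 UMI in 625 TWT cells, a ratio of 12.4 (2.10 to 504).

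Timd4 (ENSMUSG00000055546, GRCm38 chromosome 11, 46810800 to 46844332, plus strand) had 7, 4, 25 and 8 UMIs in the whole of the 4 libraries. Its C1q-cell levels were 30.8 CPM (9.99 to 71.8), 16.8 (2.03 to 60.5), 2.72 (1.45 to 4.65) and 35.4 (11.5 to 82.7), from 5, 2, 13 and 5 UMIs. The DKO interval lay below those of TWT and TKO and overlapped that of IL-6 KO. Over all cells DKO was 2.71-fold above TWT (1.14 to 7.42), and 7 of its 25 UMIs lay in dendritic cell-like cells, a class with none in TWT. Another 1 cell held 6 of the 25, and Timd4 was not called higher than TWT with the study's cell filter. Averaged cell by cell, the all-cell log2 ratio was -0.23.

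Igf1 (ENSMUSG00000020053, GRCm38 chromosome 10, 87858265 to 87937042, plus strand) encodes insulin-like growth factor 1, which macrophages secrete and which supports erythroid growth. C1q cells of TWT had 252 CPM (181 to 342), those of IL-6 KO 142 (82.9 to 228), those of DKO 21.5 (17.6 to 26.1) and those of TKO 121 (70.2 to 193). DKO was 11.7-fold below TWT (7.95 to 17.0) and 5.60-fold below TKO (3.14 to 9.41). Over all cells the values were close in TWT and DKO, 1.17 and 1.63 CPM, a ratio of 1.40 (1.05 to 1.88), and were 0.722 and 0.619 in IL-6 KO and TKO. Averaged cell by cell, the log2 ratio of DKO to TWT was -1.63. C1q cells held 54.7% of the Igf1 UMIs in TWT and 74.6% in DKO.

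Adgre1 (ENSMUSG00000004730, GRCm38 chromosome 17, 57358691 to 57483527, plus strand), which encodes the pan-macrophage antigen F4/80, was the member whose C1q-cell level in DKO lay within 2-fold of TWT. C1q cells of TWT had 320 CPM (239 to 420), those of IL-6 KO 159 (95.8 to 249), those of DKO 243 (230 to 258) and those of TKO 234 (161 to 329). The DKO to TWT ratio was 0.761 (0.576 to 1.02). Over all cells it had 14.5, 13.4, 63.2 and 16.1 CPM, 4.37-fold higher in DKO than in TWT (4.07 to 4.69). It was found in 27.3% of DKO cells and in 6.95 to 8.39% of the cells of the other libraries.

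The Adgre1 of the DKO library came from more cells. Classical monocyte-like cells made up 16.7% of DKO cells and 6.43 to 7.61% of the others, and their Adgre1 level was 101 CPM against 82.0 for TWT, a ratio of 1.23 (1.12 to 1.36). The non-classical class held 16.6% of DKO cells and 0.487 to 1.31% of the others. There Adgre1 was lower in DKO, at 141 CPM against 315, 291 and 307, a ratio to TWT of 0.447 (0.338 to 0.606).

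Because the DKO C1q cells were deeper, shares of positive cells were taken after thinning each cell to 1000 UMIs, which left 30, 19, 619 and 25 C1q cells and dropped 23, 15, 5 and 18. Vcam1 was then found in 43.3% of TWT cells (25.5 to 62.6%), 63.2% of IL-6 KO, 0.323% of DKO (0.0392 to 1.16%) and 28.0% of TKO (12.1 to 49.4%). Mrc1 had 36.7, 42.1, 2.42 and 12.0%, Igf1 33.3, 21.1, 2.10 and 8.0%, and Axl 40.0, 52.6, 11.6 and 24.0%. The DKO intervals of Vcam1, Mrc1, Igf1, Spic, Cd163, Timd4 and Axl lay below those of TWT, and those of Mertk (2.26%, 1.24 to 3.77%, against 13.3%, 3.76 to 30.7%) overlapped by a narrow margin. Adgre1, in 9 of 30, 6 of 19, 135 of 619 and 7 of 25, had overlapping intervals in all 4. Thinned to 2000 UMIs, which left 20 TWT and 602 DKO C1q cells, Vcam1 (25.0%, 8.66 to 49.1%, against 0.498%, 0.103 to 1.45%) and Mrc1 (40.0%, 19.1 to 63.9%, against 3.32%, 2.04 to 5.08%) were the members whose DKO interval lay below that of TWT, and the intervals of the other 7 overlapped. At 1000 UMIs again, in thinned T cell-like cells, which should lack these genes, the shares were 0 to 1.47% in every library, the highest being Axl in TKO, and T cell-like cells had medians of 3800.5 to 4085.5 UMIs before thinning. The 0.323% of Vcam1 in DKO C1q cells thus sat near the 0.303% of TWT T cell-like cells and 0.213% of DKO B cell-like cells.

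**Figure D4:**
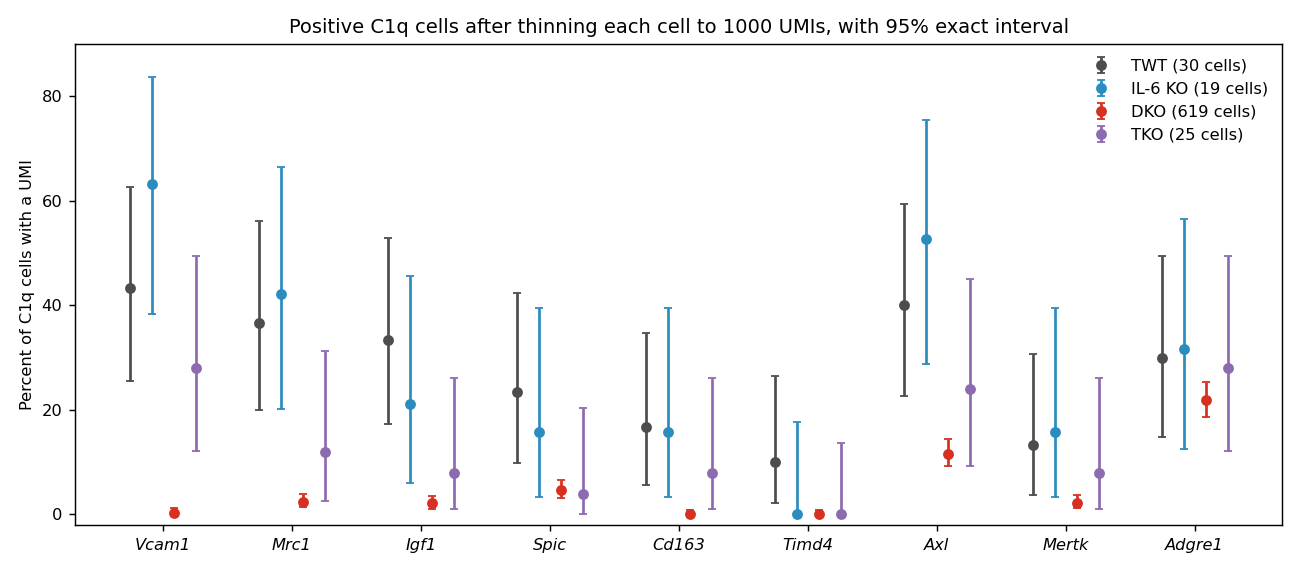
Percent of C1q cells with at least 1 UMI of each gene after thinning to 1000 UMIs, by library, with 95% exact binomial intervals. DKO points lie under 5% for every gene but Axl (11.6%) and Adgre1 (21.8%), and the Adgre1 points of the 4 libraries overlap.

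The share of C1q cells with several of the genes was lowest in DKO, by an amount that depended on the depth. At 1000 UMIs, 16 of 30 C1q cells in TWT (53.3%, 34.3 to 71.7%), 12 of 19 in IL-6 KO (63.2%), 43 of 619 in DKO (6.95%, 5.07 to 9.24%) and 7 of 25 in TKO (28.0%, 12.1 to 49.4%) had 2 or more of the 9. At 2000 UMIs it was 10 of 20 in TWT (50%, 27.2 to 72.8%), 4 of 12 in IL-6 KO (33.3%, 9.92 to 65.1%), 111 of 602 in DKO (18.4%, 15.4 to 21.8%) and 9 of 17 in TKO (52.9%, 27.8 to 77.0%), so that the DKO interval lay below those of TWT and TKO and overlapped that of IL-6 KO. Without thinning the shares were 88.7, 94.1, 52.4 and 76.7%. C1q cells with no UMI of any of the 9 numbered 94 of 624 in DKO without thinning, 7 of 43 in TKO, 1 of 53 in TWT and 0 of 34 in IL-6 KO. As shares of the C1q cells, the DKO and TKO values were close to each other.

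Few DKO C1q cells had both Mrc1 and Spic. These splits were chosen after the values were seen, and with counts this sparse they are a description. In TWT, 11 of the 16 C1q cells with Spic also had Mrc1 (68.8%), against 18 of 37 without Spic (48.6%). The shares with and without Spic were 62.5 and 65.4% in IL-6 KO (8 and 26 cells) and 50 and 48.6% in TKO (6 and 37 cells), close to each other in both. In DKO 2 of the 100 cells with Spic had Mrc1, against 46 of the 524 without it (8.78%), at medians of 6822 and 6874 UMIs. In DKO Mertk went with Mrc1 and Igf1. It was in 24 of 48 cells with Mrc1 and in 25 of 41 with Igf1, against 59 of 576 (10.2%) and 58 of 583 (9.95%) of those without. The cells with Mrc1 were deeper (medians 8844.5 and 6694 UMIs), as were those with Igf1 (8363 and 6729). With Mrc1, Mertk was in 8 of 29 TWT and 6 of 22 IL-6 KO cells, against 1 of 24 and 1 of 12 without. TKO went the other way, with 1 of 21 against 4 of 22. With Igf1 the Mertk share was the higher one in every library.

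The 73 DKO C1q cells with Mrc1 or Igf1 (11.7%, 9.28 to 14.5%) had a median of 8708 UMIs and the 551 others 6638. In them Folr2, a folate receptor, had 86.2 against 1.46 CPM, and Cbr2 had 115 against 6.31 CPM. Apoe, which carries lipid, had 24552 against 5126 CPM, and Trem2, a lipid-sensing receptor, 765 against 208 CPM. Timd4 had 16.6 against 0.485 CPM, but 54.5% of its 11 UMIs came from 1 cell. Vsig4, a complement receptor, had 93.8 against 0.485 CPM, but 50% of its 62 UMIs came from 1 cell, and 83.5% of the Elane UMIs among these cells came from 1 cell. Cells with Mrc1 or Igf1 also had more Apoe in TWT (2.24-fold, 1.96 to 2.57), IL-6 KO (3.89-fold) and TKO (3.66-fold). Trem2 in TWT had 14 UMIs in them and 4 in the others, a ratio of 2.68 whose interval held 1 (0.841 to 11.2). The 37 TWT cells with Mrc1 or Igf1 had 2074 against 341 CPM of Vcam1 and 1390 against 199 of Slc40a1 (the iron exporter ferroportin). Hmox1 (heme oxygenase 1) had 2226 against 426 CPM in them and Cd5l 478 against 28.4. The DKO cells with Mrc1 or Igf1 also had more Vcam1, at 19.7 against 3.64 CPM, from 13 UMIs in 7 cells and 15 UMIs in 11 cells. Hmox1 and Cd5l were lower in these DKO cells than in the others, at 290 against 554 and 4.54 against 29.1 CPM. The 4.54 CPM of Cd5l rests on 3 UMIs of 1 cell. Slc40a1 had 9.08 against 7.28 CPM, the former from 6 UMIs in 4 cells. Its ratio of 1.25 had an interval that held 1 (0.424 to 3.05), so its direction in DKO was not resolved.

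The level of Hmox1 went with Spic in DKO. The 100 DKO C1q cells with Spic (16.0%, 13.2 to 19.1%) had 2084 CPM of Hmox1 and the 524 without it 220. The ratio was 9.46 (8.71 to 10.3), and the cell with the most supplied 11.9% of the UMIs. The shares of cells with Hmox1 lay closer, at 68% with Spic and 56.9% without. The interval covers counting error and not the spread between cells. In TWT the CPM ratio of Hmox1 was 1.53 (1.16 to 1.995), in IL-6 KO 1.10 (0.679 to 1.74) and in TKO 1.22 (0.766 to 1.89). The DKO cells with Spic also had more Ccl4 (313 against 43.8 CPM) and Axl (186 against 113 CPM). They had less Apoe (2103 against 8893 CPM) and no Folr2 or Vsig4 UMI. Ccl4 was found in 28% of the cells with Spic and 12.6% of those without. Of the Ccl4 UMIs of the cells with Spic, 38.5% came from 1 cell. Hbb-bt was 16.8-fold higher in them, but 64.3% of its UMIs came from 1 cell. Of the cells with Spic 10.0% were among the 5% of barcodes of highest Scrublet doublet score, against 8.97% of the others.

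**Figure D5:**
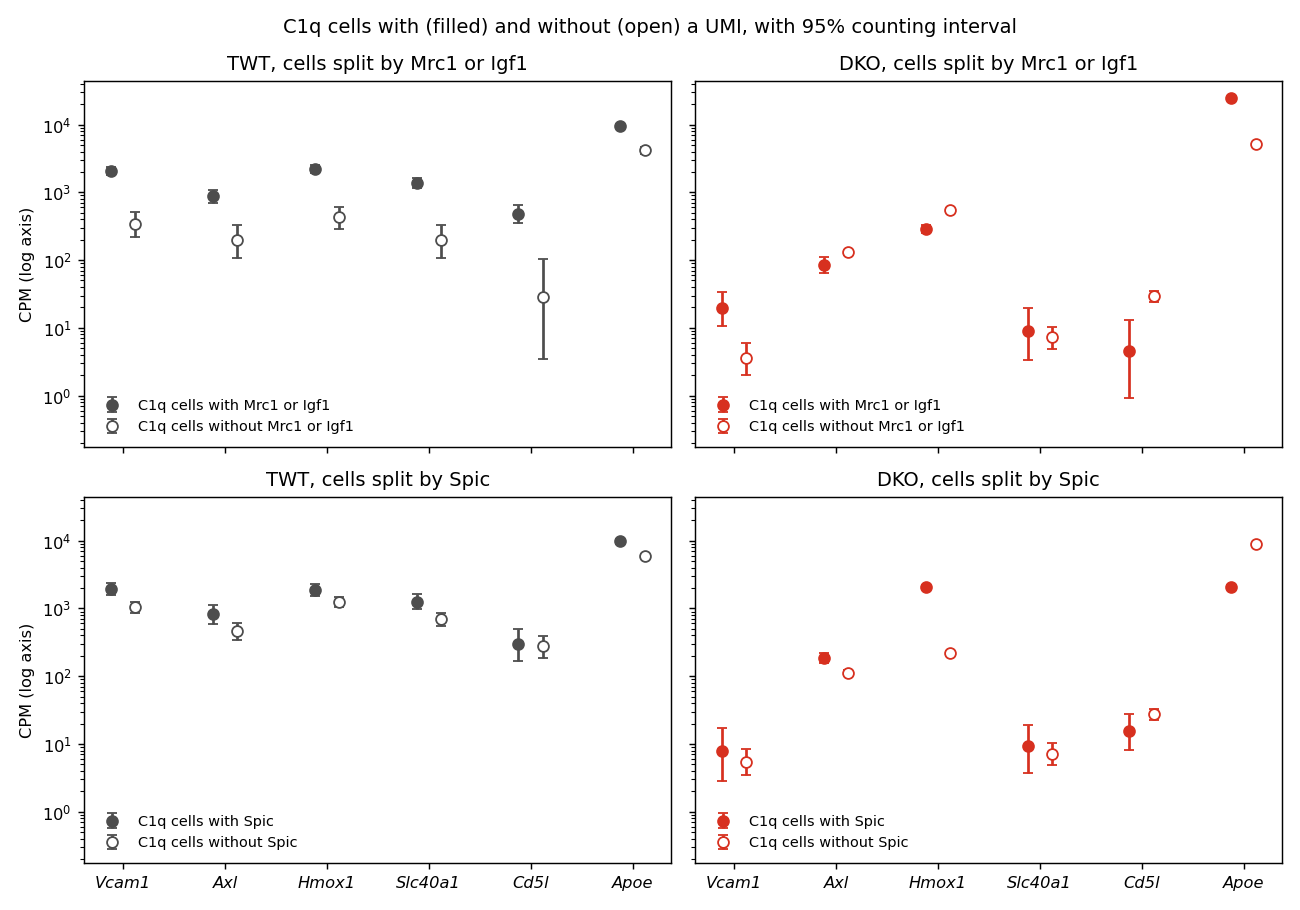
CPM on log axes in C1q cells with (filled) and without (open) a UMI of Mrc1 or Igf1 (top) and of Spic (bottom), in TWT (left) and DKO (right), with 95% counting intervals. In TWT the filled points of Vcam1, Axl, Hmox1, Slc40a1, Cd5l and Apoe lie above the open ones in the top panel. In DKO the filled Hmox1 point lies above the open one in the bottom panel only.

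In TKO the C1q cells lay between those of TWT and DKO for most of the genes. Against TWT, 4 of 7 measured genes were at least 2-fold lower (Vcam1, Igf1, Spic and Axl) and none higher, where 3.47% and 4.0% of measured genes were. Vcam1 was 2.45-fold lower (1.88 to 3.23) and Axl 2.55-fold lower (1.69 to 3.94), while Mrc1 differed by 1.43-fold with an interval that held 1 (0.972 to 2.12). In IL-6 KO 1 of 7 was lower, Adgre1 (2.01-fold, 1.17 to 3.60), where 8.35% of measured genes were, and none was higher, where 7.03% were. Vcam1 was the 1 gene of 5 that was lower in TKO than in IL-6 KO (2.01-fold, 1.499 to 2.70), where 6.31% were, and none was higher, where 6.31% were too. Set against TKO, DKO C1q cells had 4 of 7 lower (Vcam1, Mrc1, Igf1 and Mertk), where 11.1% were, and none higher, where 13.9% were. Over all cells, 6 genes were higher in DKO than in TKO (Igf1 besides the 5 named against TWT), where 8.47% of genes were, and none lower, where 15.9% were. Of these Timd4 was measured through its 25 UMIs in DKO, with 8 in TKO. Both TKO and IL-6 KO had 1 gene lower than TWT over all cells, Spic, at 2.04-fold (1.26 to 3.38) and 2.15-fold (1.29 to 3.68), where 4.11% and 2.05% of genes were. None of the 8 measured genes was higher in either, where 0.655% and 1.51% were, and TKO and IL-6 KO had none apart in either direction, where 0.953% of genes were higher and 3.21% lower. These comparisons share the TWT, DKO or TKO library, and the TKO to TWT difference rested on 43 and 53 C1q cells.

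The other genes of resident and erythroblastic island macrophages moved with the 9 in the C1q cells. Of 22 listed, 17 were measured between DKO and TWT. In DKO 9 were at least 2-fold lower and 2 higher, where 9.98% and 17.0% of all measured genes were. Their median log2 ratio was -1.48, against 0.11 over all measured genes. Slc40a1 had 874, 536, 7.52 and 291 CPM in TWT, IL-6 KO, DKO and TKO, 116-fold lower in DKO than in TWT. Fcna, a ficolin, had 345, 578, 10.0 and 149 CPM. Trf (transferrin) had 449, 335, 25.7 and 340.3 CPM, and Cd5l, a secreted macrophage scavenger protein, 283, 209, 25.7 and 135. Hmox1, Hpgd, Sdc3, Maf and Il18bp were the other 5 that were lower, by 2.79- to 8.54-fold. Nr1h3, the lipid-sensing nuclear receptor LXRα, and Clec4n were the 2 that were higher, by 2.63- and 2.58-fold. Csf1r, the receptor macrophages need to survive, had 388 and 404 CPM in TWT and DKO, within 2-fold.

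Among the members' partners 14 of 21 were measured, with 8 higher in DKO C1q cells and 3 lower, where 17.0% and 9.98% of all measured genes were, and a median log2 ratio of 1.17 against 0.11. The lists that follow are to be read against the same shares. Itgb1, a subunit of the VCAM1 ligand VLA-4, was 3.32-fold higher and Spi1 2.69-fold higher. Gas6, the ligand of Axl and Mertk, was 4.33-fold lower and Igf1r, the IGF1 receptor, 3.07-fold lower. The hemoglobin gene Hba-a1, whose protein CD163 takes up, was 67.0-fold lower. It is also 1 of the 8 erythroid markers, which summed to 22906 CPM in TWT and 1999 in DKO over all cells. Another hemoglobin gene, Hbb-bs, had 1714 UMIs in 9 TWT C1q cells without Mrc1 or Igf1 and 50 in those with either. Whether hemoglobin RNA in C1q cells came from erythroid cells was not tested. Of 11 engulfment genes 8 were measured and 1 was lower, Cd36 (5.16-fold). Rac1, Itgav and Cd300a were 1.52- to 1.89-fold higher, within the rule.

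Lipid-handling genes took neither course. Of 14, all measured, 5 were higher and 2 lower, with a median log2 ratio of -0.13. Spp1 (osteopontin) was 16.8-fold higher in DKO, at 516 against 30.8 CPM, while Lpl was 3.37-fold lower, Cd36 5.16-fold lower, and Gpnmb 3.02-fold higher against a single TWT UMI (0.529 to 121). Gpnmb had 6.15, 176, 18.6 and 219.8 CPM in C1q cells of TWT, IL-6 KO, DKO and TKO, so that DKO lay below both IL-6 KO and TKO. Of 10 monocyte genes 1 was higher and 4 lower. Fn1 (fibronectin) had 2547 UMIs in DKO against 1 in TWT, a ratio of 86.5 (15.5 to 3419), Vcan had 135 UMIs against 0, within 2-fold of a floor of 3 UMIs in TWT, and the genes that were lower included Thbs1 (4.01-fold), Plac8 (3.08-fold) and Ms4a4c (2.50-fold). Of the 8 dendritic and other macrophage genes 6 were measured. The 4 MHC class II genes among them, H2-Ab1, H2-Aa, H2-Eb1 and Cd74, were 3.14- to 4.02-fold lower, and Itgax was 2.24-fold higher.

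Within the DKO library, 327 C1q cells with 2 or more of the 9 genes were set beside the 94 with none, which were shallower (medians 7477 and 4740 UMIs). The 10 genes of highest ratio were C4b, Elane, Gpnmb, Hbb-bt, Gas2l3, Rxra, Epb41l1, Pmp22, Rcan1 and Hba-a1, of which 7 rest on 1 UMI in the cells with none. C4b, a complement gene, had 145 UMIs against 1 (ratio 28.1, 4.96 to 1117), and Pmp22, a membrane protein gene, 284 against 5 (104 and 9.41 CPM). In C1q cells of TWT, IL-6 KO and TKO, C4b had 0, 1 and 0 UMIs, and the same split there left at most 7 cells with none, too few for a ratio.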

How the data were processed

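Bone marrow RNA of 4 libraries was read by 10x Genomics 3′ chemistry (v3) on DNBseq. The authors used Cell Ranger (3.0.2 in the file headers) and the mm10 build, and the deposited matrices hold raw UMI counts per gene and cell, not normalized, for called cells, and the labels also name Seurat 4. Libraries held 8423 to 10866 barcodes and 61292684 to 85145074 UMIs. Barcodes above 15% mitochondrial UMIs were left out, and CPM are summed UMIs over the summed UMIs of the same cells. Genes with at least 30 UMIs in 2 libraries together and a CPM ratio of at least 2 were called. Poisson, Clopper-Pearson and conditional binomial intervals at 95% cover counting error only, since reads of 1 library are not replicates. Cells outside the C1q gate took the class with the highest mean scaled level of its 8 markers, needing 3 detected, a rule set after the data were seen. Classes were checked by their 10 leading genes, and each had more of its own markers there than of any other class. Scrublet's own threshold marked 1 DKO barcode, so the 5% of barcodes with the highest score per library were taken as doublets in 1 alternative and kept in all main values. Thinning drew UMIs without replacement. Named genes were the 9 members, per list the 4 measured genes with the largest absolute log2 ratio of DKO to TWT in C1q cells, the 10 genes of highest ratio between DKO C1q cells with 2 or more and with no member, the markers, Diaph1 and Il6; other names, and the splits by Mrc1, Igf1 and Spic, were chosen after values were seen. The members, 6 gene lists and rules were chosen with earlier results of these data known. The calling rule was run on simulated Poisson counts, which held no spread between cells or libraries and so bear on counting error alone. Python 3.11.15, numpy 2.4.6, scipy 1.17.1, pandas 2.3.3, scanpy 1.11.5 and matplotlib 3.10.9 were used. Coordinates are from GENCODE's GRCm38 annotation. Values of some listed genes are not reported here, though the list counts and sums include them.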

Additional observations from a re-analysis of the deposited data

Results flagged for a closer look

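The members at least 2-fold apart in either comparison included Axl and Mertk. Their all-cell values alone lay higher in DKO than TWT but lower in TKO than IL-6 KO. For Axl the log2 ratio was 1.78 in DKO against TWT and -0.40 in TKO against IL-6 KO, and for Mertk it was 2.74 and -0.38. Both TKO to IL-6 KO differences were within 2-fold, with ratios of 0.757 for Axl (0.591 to 0.969) and 0.770 for Mertk. The Mertk ratio came from 18 and 21 UMIs and its interval held 1 (0.387 to 1.52), so no opposite movement was shown for it. Igf1, within 2-fold in both, had 0.48 and -0.22. With 1 library a genotype the difference between these ratios was not tested.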

How the results depend on the processing

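No paired analysis was possible because each genotype had 1 library, and for the same reason no library could be left out of a group. The direction of the C1q-cell difference between DKO and TWT was below 0 on the log2 scale in all 16 settings for Vcam1, Mrc1, Igf1, Spic, Axl and Mertk, with Vcam1 between -8.80 and -6.85, while Adgre1 ranged from -1.11 to 0.18. Averaging each cell's CPM turned 3 all-cell directions, Timd4 between DKO and TWT (-0.23) and Igf1 between DKO and TWT (from 0.48 to -1.63) and between DKO and TKO (-0.48). In C1q cells of at least 2000 UMIs, Spic and Axl between DKO and TKO went from -0.11 to 0.82 and from -0.86 to 0.04. Of 144 alternative all-cell log2 ratios 28 moved past their counting interval. A further 2, of genes called 2-fold apart, also lay past it and changed sign. Of 269 alternatives in C1q cells 32 moved past theirs.

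Counts of members called between DKO and TWT over all cells, 7 as reported, were 4 with a pseudocount of 1 CPM and 4 at 3-fold. The count of 1 in IL-6 KO against TWT became 2 with the study's cell filter and 2 at 1.5-fold, and 0 with all barcodes, a pseudocount, 3-fold or 100 UMIs. The count of 1 in TKO against TWT became 4 with each cell's CPM averaged and 6 at 1.5-fold, and 0 without doublets, with a pseudocount, at 3-fold or 100 UMIs. In C1q cells the count of 1 in IL-6 KO against TWT became 3 at 1.5-fold, 2 in cells of at least 1000 UMIs, 3 in cells of at least 2000 UMIs, 2 in cells with S100a8 and S100a9 under 5%, and 0 with averaged CPM, 3-fold, 100 UMIs, or a gate of 2 C1q UMIs and 0.1%. The count of 4 in TKO against TWT became 2 at 100 UMIs, 2 with a gate of 10 C1q UMIs, 2 in cells of at least 2000 UMIs, 1 with a gate of 3 C1q UMIs, 1 with S100a8 and S100a9 under 5%, and 0 at 3-fold. The limits of 2000 UMIs and of S100a8 and S100a9 were chosen after seeing the data. The cause of these changes was not tested.

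The share of C1q cells was 0.9503% in TWT, 0.628% in IL-6 KO and 6.92% in DKO with a gate of 3 UMIs, and 0.365%, 0.201%, 5.21% and 0.273% in TWT, IL-6 KO, DKO and TKO with a gate of 10. With 34 to 53 C1q cells outside DKO, the depth limits every comparison among TWT, IL-6 KO and TKO.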
